A study of Mus musculus with 7 samples.

Results

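The 9 annexin genes Anxa1 to Anxa8 and Anxa11 were followed through 7 mouse RNA-seq libraries. They are the listed annexin rows of the deposited table, chosen by name, and all 9 were found among its 24354 gene symbols, which hold 12 annexin symbols in all. Values are FPKM, which divides the fragments of a gene by transcript length and by library size. Levels can thus be set beside each other between genes and, roughly, between libraries. The FPKM sum over all genes still ran from 445433 to 594605 between libraries. Fibroblasts held the most annexin transcript by far, with a sum of 2701 FPKM over the 9 genes. The neural stem cell library held 544 FPKM and the 5 converted lines 64.4 to 663 FPKM.

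Annexins are proteins that bind acidic phospholipids of membranes when calcium is present. Each has a conserved core of repeats that carries the calcium sites and a short N-terminal tail that differs between members and binds partners such as S100 proteins. They are known for work in membrane repair, vesicle traffic, links between membrane and actin, and the end of inflammation. In neural tissue they have been studied mostly in glia and in the response to injury.

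Fibroblasts (MEF) came from embryos at embryonic day 13.5 after the head, inner organs and spinal cord were taken out, with the strain label C57BL/6-Pou5f1 x 129X1/SvJ and a genotype that joins Oct4-CreER to Rosa26-loxSTOPlox-EYFP. Control neural stem cells (cNSC) came from the cerebral cortex at the same age, from OG2/ROSA26 heterozygous female mice, so strain and genotype differ from the other libraries. Induced neural stem cells (iNSC) were fibroblasts infected with lentivirus or retrovirus and kept in neural stem cell medium. The lines pOKSM, pBKSM, mcBKSM clone 1 and mcBKSM clone 3 carry the MEF strain and genotype labels, and the DTA line carries Oct4-CreER with Rosa26-loxSTOPlox-DTA and an unknown strain. The growth protocol names polycistronic vectors (several factors on 1 transcript) and monocistronic vectors (1 factor each). The labels do not spell out the prefixes p and mc or the factor letters, so the line names are used as names, with B taken as Brn4 from knowledge of the field. Each library was made from pooled RNA of 2 to 3 biological replicates, mcBKSM is known from 2 clones, and every other group is 1 library. The spread behind each p-value is thus that of different lines or of 2 clones, and it may be partly technical.

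Approximate depth, read from the step size of low values, was 10.8 to 15.6 M fragments per library, and 3 fragments on an annexin transcript then correspond to 0.0661 to 0.192 FPKM, counting error only. Of the 10 fibroblast markers checked, 9 reached 1 FPKM in MEF (sum 1553 FPKM), 1 in cNSC and 1 to 3 in the lines, and of 10 neural stem cell markers 9 or 10 reached 1 FPKM in cNSC and each line. Pou3f4, the gene of Brn4, reached 27.2 FPKM in cNSC, 24.1 in DTA and 19.99 in pBKSM, with 2.26 FPKM in pOKSM. Both mcBKSM libraries, like MEF, had it at 0, below pOKSM, whose name has no B. Pou5f1 (Oct4) was 0.202 FPKM in pOKSM, whose name has an O, and at most 0.398 in any library. The Pou3f4 level thus does not follow the B of the clones' label. Which factors a line was given cannot be read from these levels, and mcBKSM stands below for the 2 libraries so labelled.

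**Figure D1:**
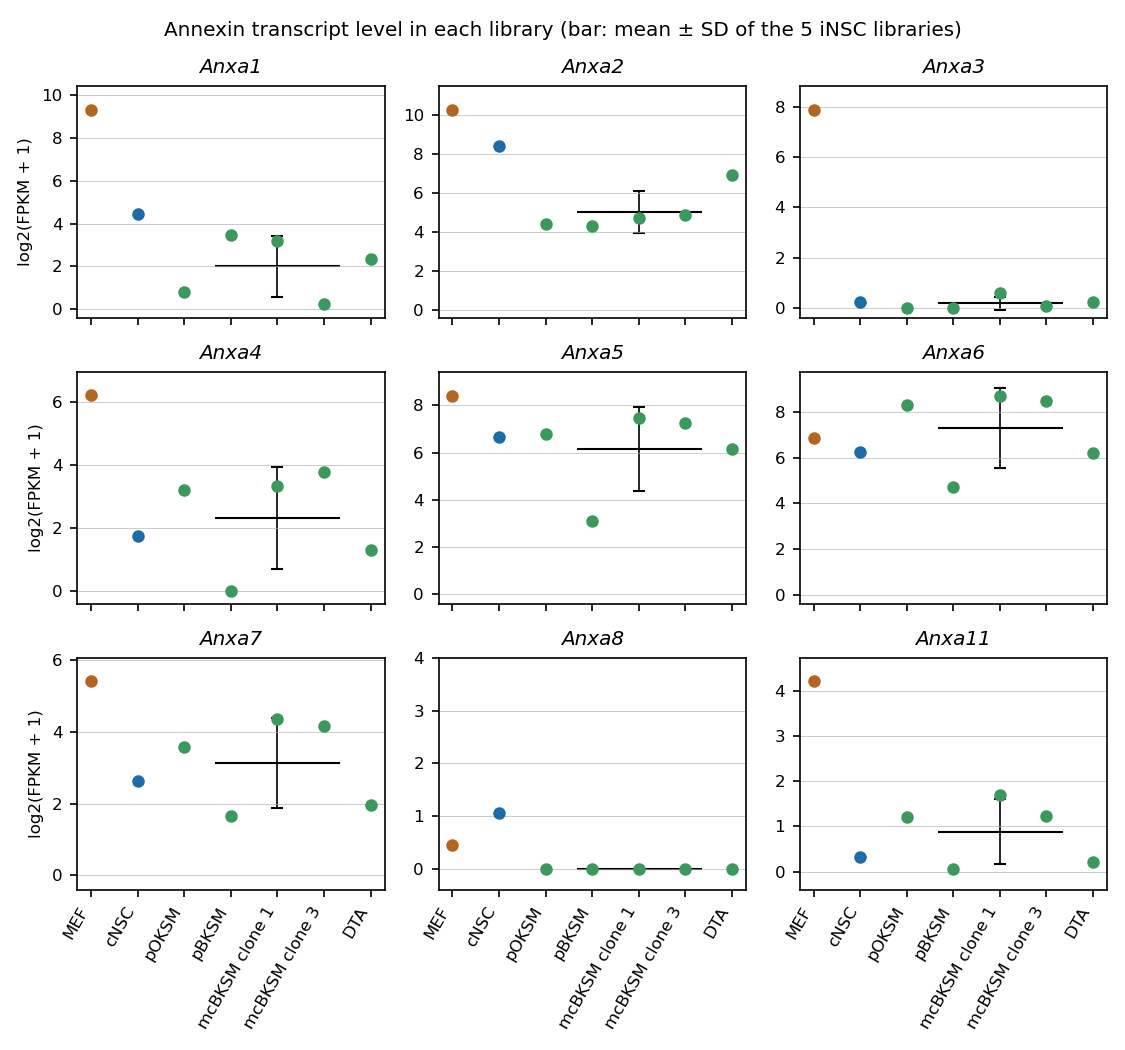
Each panel plots log2(FPKM + 1) of 1 annexin gene in the 7 libraries (brown MEF, blue cNSC, green iNSC); the black bar is the mean ± SD of the 5 iNSC libraries. MEF is the highest library for 7 of the 9 genes, and pBKSM is the lowest for 6.

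MEF was the highest of the 7 libraries for 7 of 9 members (Anxa1, Anxa2, Anxa3, Anxa4, Anxa5, Anxa7 and Anxa11), against 28.7% of the 13042 genes that reached 1 FPKM in some library. Anxa6 was highest in mcBKSM clone 1 and Anxa8 in cNSC. Anxa3 reached 1 FPKM in MEF alone and Anxa8 in cNSC alone. The highest library of each was thus fixed in advance, and the MEF count is a description. At the other end, pBKSM was the lowest library for 6 of 9 members (Anxa2, Anxa4, Anxa5, Anxa6, Anxa7 and Anxa11), against 14.0% of genes. Of the 9 members, 8 reached 1 FPKM in MEF, 7 in cNSC and mcBKSM clone 1, 6 in pOKSM, mcBKSM clone 3 and DTA, and 5 in pBKSM. These are bulk samples, in which fewer cells of a type and less RNA per cell cannot be told apart.

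**Figure D2:**
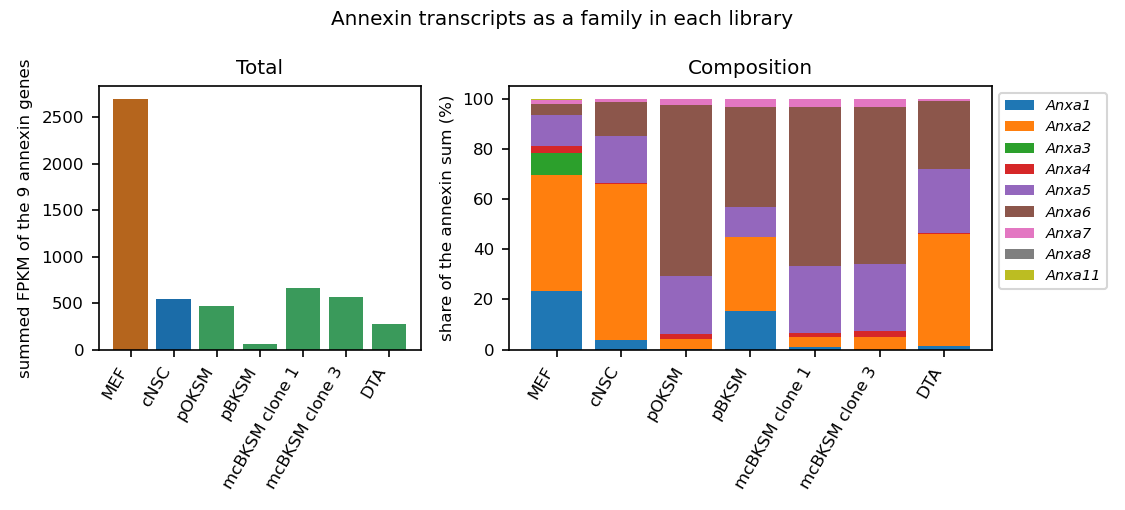
Left, FPKM summed over the 9 annexin genes in each library. Right, the share of that sum held by each gene in percent: Anxa2 leads in MEF, cNSC and DTA, and Anxa6 leads in pOKSM, pBKSM and both mcBKSM clones.

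The make-up of the family differed as well as its sum. Anxa2 made up 46.0% of the annexin sum in MEF, 62.2% in cNSC and 44.4% in DTA. In pOKSM and mcBKSM clones 1 and 3 its share was 4.25%, 3.86% and 5.05%, and Anxa6 held 68.2%, 63.4% and 62.7% of the sum. In pBKSM, where the sum was 64.4 FPKM, Anxa6 held 39.8%, Anxa2 29.6% and Anxa1 15.4%. The share of Anxa5 ran from 11.7% in pBKSM to 26.8% in mcBKSM clone 1. As a part of all FPKM in the library, the family took 0.503% in MEF, 0.120% in cNSC and 0.0108% to 0.119% in the lines. In MEF, Anxa2 ranked 55 among all gene symbols by FPKM and Anxa1 ranked 112.

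Promoter sequence from RefSeq (GRCm38.p6) was found for 7 of the 9 members, with no entry for Anxa3 and Anxa6. Shown are stretches before the start site, free of annotated exons, for members called in the tests below: Anxa2 and Anxa11, lower in iNSC than in MEF, and Anxa7, lower in pBKSM than in the mcBKSM clones. Each runs 5′ to 3′ on the gene's strand, and capitals mark matches, on either strand, to an AP-1 motif (TGANTCA) or a GC box (GGGCGG).
Anxa2, plus strand, chr9:69453433-69453619: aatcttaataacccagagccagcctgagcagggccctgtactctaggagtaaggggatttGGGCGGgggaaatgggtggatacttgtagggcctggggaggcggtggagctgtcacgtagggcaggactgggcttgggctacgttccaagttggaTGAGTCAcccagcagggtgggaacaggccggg
Anxa11, plus strand, chr14:25841905-25842154: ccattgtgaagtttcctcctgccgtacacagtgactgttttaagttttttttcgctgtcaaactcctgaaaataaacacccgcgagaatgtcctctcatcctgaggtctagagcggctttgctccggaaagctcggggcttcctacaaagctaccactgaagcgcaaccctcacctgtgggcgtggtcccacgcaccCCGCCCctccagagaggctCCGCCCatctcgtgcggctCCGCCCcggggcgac
Anxa7, minus strand, chr14:20480134-20480383: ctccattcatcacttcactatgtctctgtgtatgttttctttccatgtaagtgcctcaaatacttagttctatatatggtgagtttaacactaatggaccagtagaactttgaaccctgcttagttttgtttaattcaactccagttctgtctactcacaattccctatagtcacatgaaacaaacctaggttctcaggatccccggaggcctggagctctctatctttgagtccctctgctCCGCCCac
The AP-1 match of Anxa2 lies at position -95 from its RefSeq start, and 7.81% of all 32851 promoter windows of 300 bases hold such a match. In the full windows, Anxa2 and Anxa11 each held 3 GC boxes, and 35.7% of windows hold at least 1. RefSeq gives Anxa7 another start further downstream, whose window (not printed, since most of it overlaps annotated exons) held 4 GC boxes, against 1 in the window shown. None of the 9 windows of the 7 members held a CCAAT match, a motif found in 37.4% of windows, and the windows of Anxa1 and Anxa2 held a TATAAA match (13.6% of windows). A match is a description of the letters only.

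To see how far the lines had left the fibroblast pattern, the 5 iNSC libraries were compared with MEF. Of the 9 members, 5 were called lower and 0 higher (limma, adjusted p under 0.05), where 16.3% of all 13042 genes tested were called, 9.55% lower and 6.77% higher. The members' median difference, iNSC minus MEF, was -3.34 on the log2(FPKM + 1) scale, and that of all genes tested was 0.03. The called genes were Anxa1, Anxa2, Anxa3, Anxa8 and Anxa11. Anxa3 reached 1 FPKM in MEF alone and Anxa8 in cNSC alone, so both had to be lower in the lines than in the library that brought them into the test, and the count and median with them are a description. Of the other 7 members, 3 were called.

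Anxa3, an annexin known from phospholipase inhibition and from blood vessel growth (chromosome 5, 96793339 to 96845966, mm10), was 237 FPKM in MEF. It was listed at 0 in pOKSM and pBKSM and was 0.518 FPKM in mcBKSM clone 1, 0.0518 in clone 3, 0.164 in DTA and 0.171 in cNSC. Every other library was far below MEF, and apart from clone 1 all were at or near the level of a few fragments. The log2 difference, iNSC minus MEF, was -7.72 ± 0.28 (SE). It is given as a value only, since MEF alone brought the gene into the test.

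Anxa1 encodes a mediator that damps inflammation, acting through formyl peptide receptors (chromosome 19, 20373428 to 20390944, mm10). Its level was 634 FPKM in MEF, 20.9 in cNSC, 9.93 in pBKSM, 8.01 in mcBKSM clone 1, 4.11 in DTA, 0.715 in pOKSM and 0.181 in mcBKSM clone 3. All lines were far below MEF. The lines lay 54.9-fold apart from each other and the clones 44.3-fold, both resting on the value of clone 3, which is near the level of 3 fragments. The log2 difference from MEF was -7.31 ± 1.34 (SE, limma adjusted p = 0.0194). The call ended with a pseudocount of 0.1 (adjusted p = 0.0543) and without both mcBKSM clones (0.0568). Below cNSC no neighbours in the order of levels differed by more than the clones did.

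Anxa2 forms a complex with S100a10 at the plasma membrane that binds actin and plasminogen (chromosome 9, 69453620 to 69491795, mm10). It was 1243 FPKM in MEF, 339 in cNSC and 122 in DTA, and then 28.5 in mcBKSM clone 3, 25.6 in clone 1, 20.05 in pOKSM and 19.1 in pBKSM. The other 4 lines sat within a narrow range, and DTA stood between them and cNSC. The log2 difference of iNSC from MEF was -5.22 ± 1.01 (SE, limma adjusted p = 0.0230), and it was not called when pOKSM, mcBKSM clone 1 or clone 3 was left out (adjusted p = 0.0616, 0.0576 and 0.0587), or both clones at once (0.119).

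Anxa11, which ties RNA granules to lysosomes (chromosome 14, 25842156 to 25886804, mm10), was 17.7 FPKM in MEF. It was 2.26 FPKM in mcBKSM clone 1, 1.36 in clone 3, 1.32 in pOKSM, 0.247 in cNSC, 0.157 in DTA and 0.0387 in pBKSM. MEF was above every other library, and the last 3 were at or near the floor. The log2 difference of iNSC from MEF was -3.34 ± 0.68 (SE, limma adjusted p = 0.0273). Calls ended with a pseudocount of 0.1 (adjusted p = 0.121), without pOKSM (0.0657), without mcBKSM clone 3 (0.0570) and without both clones (0.0517).

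Anxa8 (chromosome 14, 34085981 to 34100571, mm10) had 1.08 FPKM in cNSC and 0.358 in MEF and was listed at 0 in all 5 lines. It entered the test through cNSC alone, so its calls against MEF (adjusted p = 0.0335, limma) and against cNSC (adjusted p = 0.0109, limma) are given as values only.

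**Figure D3:**
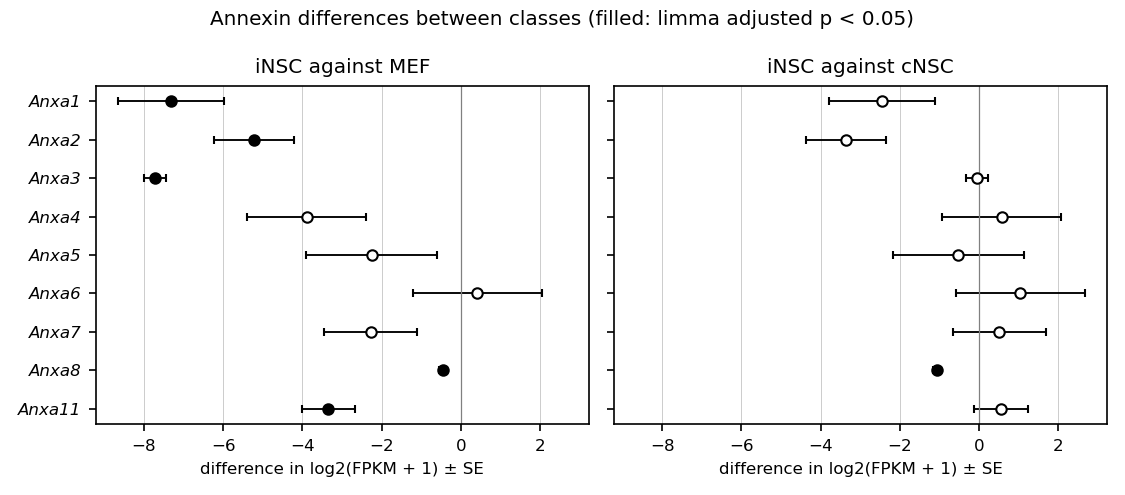
Differences in log2(FPKM + 1) ± SE for each annexin gene, iNSC minus MEF on the left and iNSC minus cNSC on the right; filled points had a limma adjusted p under 0.05. On the left 5 genes are filled, all below 0, and on the right only Anxa8 is.

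The other 4 members did not pass against MEF, and the lines differed widely from each other in all of them. Anxa4, a vesicle annexin of epithelia (chromosome 6, 86736840 to 86793584, mm10), had 73.3 FPKM in MEF, then 12.7 in mcBKSM clone 3, 9.15 in clone 1, 8.29 in pOKSM, 2.36 in cNSC, 1.47 in DTA and 0 in pBKSM. Every line lay below MEF, with a log2 difference of -3.89 ± 1.504 (SE, limma adjusted p = 0.143).

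Anxa7, which promotes membrane fusion (chromosome 14, 20455260 to 20480133, mm10), was 41.8 FPKM in MEF, 19.5 in mcBKSM clone 1, 16.9 in clone 3, 11.004 in pOKSM, 5.18 in cNSC, 2.87 in DTA and 2.16 in pBKSM. Here too every line was below MEF (log2 difference -2.27 ± 1.18, SE, limma adjusted p = 0.245). Anxa4, Anxa5, Anxa7 and Anxa11 shared 1 order: MEF, the clones and pOKSM, then cNSC, DTA and pBKSM. Within it, pOKSM and cNSC for Anxa5, and cNSC, DTA and pBKSM as neighbours for Anxa11, differed by less than the clones did.

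Anxa5, the annexin used as a probe of exposed phosphatidylserine (chromosome 3, 36448923 to 36475894, mm10), was 338 FPKM in MEF, 178 in mcBKSM clone 1, 151 in clone 3, 109 in pOKSM, 101 in cNSC, 70.2 in DTA and 7.55 in pBKSM. MEF was above all others, and pBKSM was far below them. The log2 difference of iNSC from MEF was -2.25 ± 1.65 (SE, limma adjusted p = 0.397).

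Anxa6, whose protein carries the annexin core in duplicate and which binds cholesterol-rich membranes (chromosome 11, 54979108 to 55033445, mm10), had another order. It was 420.0 FPKM in mcBKSM clone 1, 354 in clone 3 and 322 in pOKSM, above the 116 FPKM of MEF, and 74.9 in cNSC, 73.8 in DTA and 25.6 in pBKSM, below it. With lines on either side of MEF, the mean was 239 ± 177 FPKM (SD, n = 5) and the log2 difference 0.42 ± 1.62 (SE, limma adjusted p = 0.878). Its sign turned when both mcBKSM clones were left out.

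The reference libraries were compared as values, 1 library against 1, with no replicate check. MEF exceeded cNSC 2-fold or more on the log2(FPKM + 1) scale for 7 members, where 15.5% of 12219 genes did so and 31.8% were that far apart in either direction. The differences, cNSC minus MEF, ran from -7.67 for Anxa3 to -1.73 for Anxa5. Anxa6 differed by -0.63 and Anxa8 by 0.61. A gene was counted here if it reached 1 FPKM in either library. Anxa3 and Anxa11 did so in MEF alone and Anxa8 in cNSC alone. Their direction was thus fixed in advance, and the count of 7 is a description.

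Whether the lines held cortical levels was then asked by comparing the 5 iNSC libraries with cNSC. Apart from Anxa8, 0 of the members were called in either direction (limma; 1.17% of all genes tested were called, 0.207% higher and 0.958% lower). The largest difference was that of Anxa2, 339 FPKM in cNSC against 43.1 ± 44.4 in the lines (SD, n = 5). All 5 lines were below cNSC, with a log2 difference of -3.35 ± 1.01 (SE, limma adjusted p = 0.258, unadjusted p = 0.0175). Without DTA, the line nearest to cNSC for this gene, Anxa2 was called, in a fit that called many more genes than the main one. Without both mcBKSM clones it was not called. Over all alternatives its log2 difference ran from -3.82 to -3.17. Markers of other cells differed too: the smooth muscle genes Acta2, Tagln and Cnn1 were 47.5, 6.04 and 5.61 FPKM in cNSC. Their means in the lines were 0.229, 0.127 and 0.0176 FPKM. Cnn1 reached 1 FPKM in cNSC alone, so it had to be lower in the lines. Myh11 of that list went the other way, below 1 FPKM (0.0380 in cNSC, mean of 0.277 in the lines). The 5 genes of that list summed to 59.7 FPKM in cNSC and 0.380 to 1.123 in the lines. The astrocyte genes Gfap and Slc1a2 were 374 and 11.9 FPKM in cNSC against means of 5.35 and 4.92 in the lines. Aldoc, Gja1, S100b and Aqp4 went the other way (165, 25.8, 2.21 and 1.21 FPKM in cNSC, means of 235, 40.3, 13.8 and 2.71). The part of these markers in the Anxa2 difference was not tested. Anxa1 was lower in all 5 lines than in cNSC too, without passing (log2 difference -2.45 ± 1.34, SE, limma adjusted p = 0.475). For Anxa4, Anxa5, Anxa6, Anxa7 and Anxa11 the lines fell on either side of cNSC, with pOKSM and the clones above it and DTA and pBKSM below it, though not every gap exceeded that between the clones. DTA and cNSC were close for Anxa6 (73.8 and 74.9 FPKM), differing by less than the clones did. Strain cannot be told apart from cell origin in this comparison.

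**Figure D4:**
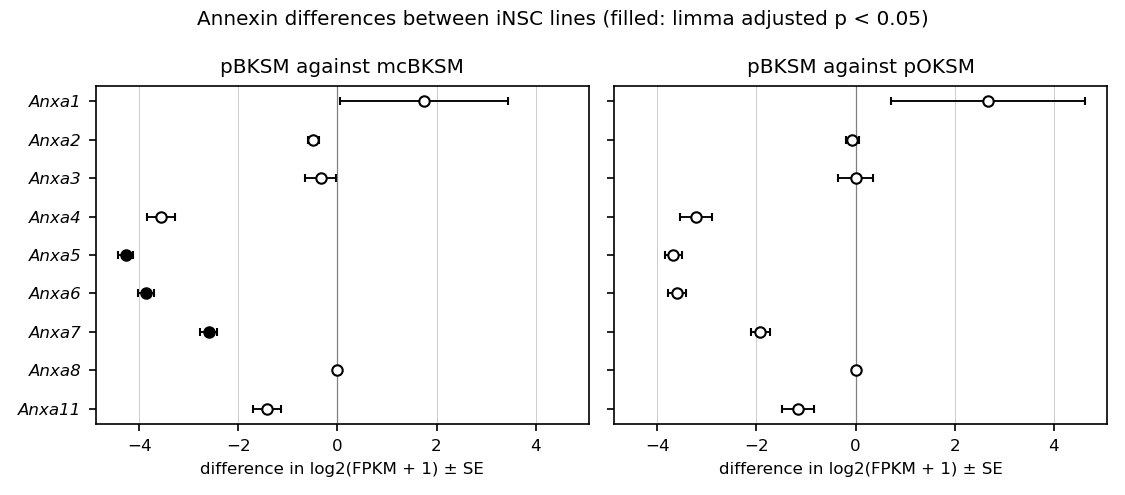
Differences in log2(FPKM + 1) ± SE for each annexin gene, pBKSM minus the mcBKSM clones on the left and pBKSM minus pOKSM on the right; filled points had a limma adjusted p under 0.05. Anxa4, Anxa5, Anxa6 and Anxa7 lie far below 0 in both panels, and Anxa5, Anxa6 and Anxa7 are filled on the left.

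Between the lines, pBKSM stood out by its low annexin levels. Against the mcBKSM clones, which share the letters BKSM in their names, Anxa5, Anxa6 and Anxa7 were called lower in pBKSM and 0 of the 9 members higher (limma), where 5.82% of all genes tested were called, 2.08% lower and 3.74% higher. Anxa5 was 7.55 FPKM against 178 and 151, 21.8-fold below the clones' mean (log2 difference -4.27 ± 0.15, SE, adjusted p = 0.0367). Anxa6 was 25.6 FPKM against 420.0 and 354, 15.1-fold below it (-3.86 ± 0.16, adjusted p = 0.0374). Anxa7 was 2.16 FPKM against 19.5 and 16.9, 8.43-fold below it (-2.60 ± 0.17, adjusted p = 0.0477).

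Anxa4, with 9.15 and 12.7 FPKM in the clones and a listed 0 in pBKSM, did not pass (-3.56 ± 0.28, SE, limma adjusted p = 0.0525) but was called with a pseudocount of 0.1 (0.0449), with a 5 FPKM filter (0.0271) and in the 3 BKSM libraries alone (0.0161), and Anxa11 did not pass (-1.42 ± 0.28, adjusted p = 0.101). Anxa2 was 19.1 FPKM against 25.6 and 28.5 and did not pass (-0.48 ± 0.11, adjusted p = 0.118). For Anxa1 pBKSM lay above both clones, which differed widely (1.74 ± 1.69, adjusted p = 0.515). The spread in this fit came from the 2 clones alone, with 1 residual degree of freedom. Without a filter on low values none of the members was called, with adjusted p = 0.0529 for Anxa5, 0.0594 for Anxa6 and 0.0705 for Anxa7, and with a pseudocount of 0.1 Anxa7 was not called (0.0509).

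Against pOKSM, whose name has O in place of B, pBKSM showed differences of like size that were not called. Anxa5 was 7.55 FPKM against 109 (log2 difference -3.68 ± 0.17, SE, limma adjusted p = 0.105) and Anxa6 25.6 against 322 (-3.60 ± 0.18, adjusted p = 0.105). Anxa4 (listed at 0 against 8.29 FPKM) and Anxa7 (2.16 against 11.004 FPKM) had differences of -3.22 ± 0.33 and -1.92 ± 0.19 (limma adjusted p = 0.124 for each). Limma called 0 of all 13042 genes in this comparison (0% of those tested) and 3269 had an unadjusted p under 0.05. With a filter of 5 FPKM, Anxa5 and Anxa6 were called (adjusted p = 0.0497 for each). Both comparisons share the pBKSM library.

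By values, pOKSM and both clones were each 2-fold or more above pBKSM for 5 of 9 members (Anxa4, Anxa5, Anxa6, Anxa7 and Anxa11), where 5.21% of 12378 genes were, and above DTA as well for Anxa4, Anxa6, Anxa7 and Anxa11, where 3.15% were. Among the lines Anxa11 reached 1 FPKM in pOKSM and the clones alone, so it had to be high there, and these counts are a description. The sum of the 10 fibroblast markers moved along with this split. It was 47.4 FPKM in pOKSM, 42.8 in clone 1 and 56.5 in clone 3, against 4.77 in pBKSM and 4.33 in DTA. Of the 10 markers 3 reached 1 FPKM in pOKSM and in each clone, 2 in pBKSM and 1 in DTA. Col3a1, Fbn1 and Pdgfra made up most of the sums in pOKSM and the clones, and the rest stayed below 1 FPKM in every line. Thy1 was 0.330 FPKM in pBKSM against 0.0429 and 0 in the clones, and Postn was highest in DTA (0.441). Col1a2 was listed at 0 in pOKSM, pBKSM and clone 3. The 6 neuron markers did not follow the split by sum (237 FPKM in pOKSM, 202 and 255 in the clones, 276 in pBKSM and 124 in DTA). Of these 6, 5 reached 1 FPKM in pOKSM and each clone, 4 in pBKSM and 2 in DTA. Most of each sum was Map2, at 259 FPKM in pBKSM and 158 in pOKSM. Rbfox3, Syt1, Dcx and Tubb3 did follow the split. Rbfox3 was 19.9 FPKM in pOKSM, 29.7 and 26.0 in the clones, 1.62 in pBKSM and 0.497 in DTA. Syt1 was 41.5, 43.0, 46.4, 9.55 and 0.511 FPKM in the same order. Snap25 stayed below 1 FPKM in every line. The 6 astrocyte markers ran the other way by sum, with 532 FPKM in pBKSM and 483 in DTA against 153 to 183 in pOKSM and the clones. Aldoc made up most of each sum (431 FPKM in pBKSM and 411 in DTA). Gja1 of that list followed the split, with 50.5 FPKM in pOKSM, 54.7 and 49.7 in the clones, 35.7 in pBKSM and 11.04 in DTA. The part of these in the annexin levels was not tested.

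DTA against the other 4 iNSC lines gave 0 called members of the 7 tested (limma; 0.355% of all genes tested were called, 0.202% higher and 0.153% lower). Anxa2 came nearest, at 122 FPKM against 19.1 to 28.5, 5.24-fold above the mean of the others (log2 difference 2.36 ± 0.27, SE, limma adjusted p = 0.0569, unadjusted p = 0.000345). Anxa2 was called without a filter and without pBKSM, but not without mcBKSM clone 1 or without both clones. Over all alternatives its log2 difference ran from 2.27 to 2.71. Without pBKSM, Anxa4, Anxa6, Anxa7 and Anxa11 were also called, lower in DTA (adjusted p = 0.0139, 0.00969, 0.0208 and 0.0396), in a fit that called 32.3% of all genes tested, 15.6% higher and 16.7% lower. Macrophage markers summed to 18.8 FPKM in DTA and 2.47 to 9.68 in the other lines, with Lyz2 at 16.1 FPKM in DTA and listed at 0 in the others. Of the rest of that list Cd68 went the other way (2.17 FPKM in DTA, 2.43 to 9.68 in the others), Ptprc was 0.128 FPKM in DTA and Aif1 was listed at 0. Some astrocyte genes also moved with Anxa2. Aqp4 was 12.7 FPKM in DTA and at most 0.560 in the others (limma adjusted p = 0.0422), Gfap 24.5 and at most 1.70 (0.0732), and Slc1a2 19.4 and at most 2.29 (0.0627). Gja1 of that list went the other way (11.04 FPKM in DTA, 35.7 to 54.7 in the others, limma adjusted p = 0.0638). S100b and Aldoc were 4.31 and 411 FPKM in DTA, below pBKSM (61.5 and 431) and above the rest. The 6 astrocyte markers summed to 532 FPKM in pBKSM, where Anxa2 was lowest, and to 483 in DTA. The part of these markers in the Anxa2 level was not tested.

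Partner genes came from lists drawn up for this family, and their background is the 16.3% of genes called against MEF. Of 8 binding partner genes, 5 fell in iNSC against MEF and 0 rose (limma; list median -3.20). S100a10, the Anxa2 partner, named after its value was seen, stood at 1306 FPKM in MEF, 795 in cNSC and 252 ± 82.6 in the lines (SD, n = 5), with a log2 difference of -2.45 ± 0.57 (SE, adjusted p = 0.0402). S100a11, a partner of Anxa1, had 1383 FPKM in MEF, 248 in cNSC and 66.2 ± 36.0 over the lines (-4.53 ± 0.70, adjusted p = 0.0115). S100a4 and S100a6 fell from 3002 and 2644 FPKM to 3.37 ± 2.70 and 3.20 ± 3.41, and the scaffold gene Ahnak from 48.1 FPKM to 2.73 ± 1.98. In pBKSM the partner genes differed in direction: S100a11 was called higher there than in the clones (92.4 FPKM against 37.2 and 38.0, limma adjusted p = 0.0451), while S100a10 was 118 FPKM against 303 and 260 (adjusted p = 0.0715).

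**Figure D5:**
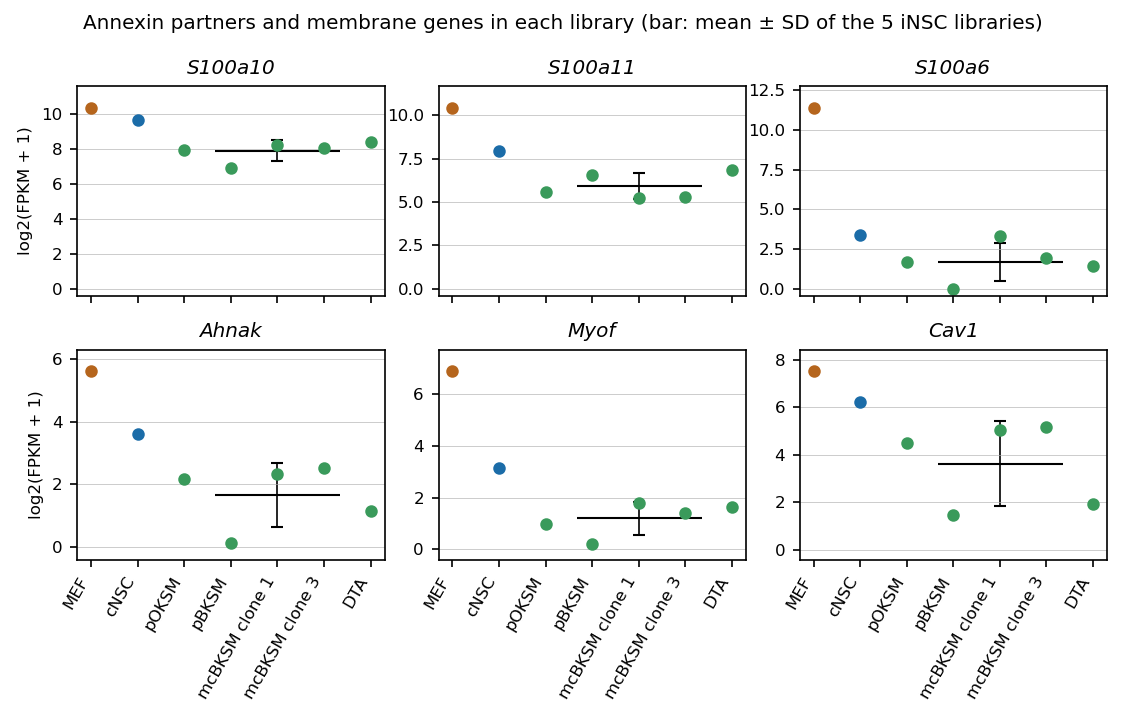
Panels plot log2(FPKM + 1) of 6 genes of the partner and membrane repair lists in the 7 libraries (brown MEF, blue cNSC, green iNSC); the black bar is the mean ± SD of the 5 iNSC libraries. MEF is highest in every panel, and pBKSM is the lowest library for S100a10, S100a6, Ahnak, Myof and Cav1 but not for S100a11.

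Anxa2 and S100a10 are known to bring plasminogen and its activator together. Of the genes of this system, the receptor gene Plaur fell in iNSC against MEF (67.3 FPKM in MEF, 2.12 ± 2.36 over the lines, SD, n = 5, limma adjusted p = 0.0323), as did the urokinase gene Plau (43.5 FPKM, 0.943 ± 0.650, adjusted p = 0.00383). Plg itself was at or under 0.09 FPKM in each library. In pBKSM the protease inhibitor Serpine2 was called higher than in the clones (2111 FPKM against 127 and 137, limma adjusted p = 0.0367), as was S100b (61.5 FPKM against 0.0450 and 0, adjusted p = 0.0367).

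Of 14 tested genes for membrane repair and caveolae, 6 fell against MEF and 0 rose (limma; list median -1.64). The ferlin gene Myof fell from 117 FPKM to 1.45 ± 0.915 in the lines (SD, n = 5), the protease gene Capn1 from 23.7 to 2.63 ± 1.69, the endocytic gene Ehd1 from 91.6 to 28.6 ± 3.04 and the ferlin gene Dysf from 5.19 to 1.05 ± 0.495. Cav1, the caveolin gene, did not pass against MEF (180.2 FPKM, 18.6 ± 15.7 in the lines, adjusted p = 0.174). It was called lower in pBKSM (1.75 FPKM) than in the clones (32.2 and 34.6 FPKM, adjusted p = 0.0367), and was named after its value was seen.

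Genes for exposing and binding phosphatidylserine, the lipid that Anxa5 binds, gave 2 of 12 lower and 1 higher in iNSC than in MEF (limma; list median -0.64). Axl, a receptor for cells that display the lipid, fell from 206 FPKM to 12.4 ± 8.34 (SD, n = 5) and the flippase gene Atp11a from 31.1 to 12.4 ± 2.05, while the flippase gene Atp8a1 rose from 0.0460 to 11.2 ± 3.61. Of 5 tested genes of the Anxa1 receptor and phospholipase list, Ptgs2, the inducible cyclooxygenase gene, fell (25.0 FPKM in MEF, 0.177 ± 0.148 in the lines). The receptor gene Fpr1 was 0.21 FPKM in MEF and listed at 0 elsewhere.

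Copines, another family that binds phospholipids with calcium, were not called against MEF (0 of 5 tested, limma; list median -0.22). Cpne1 had 50.4 FPKM in MEF, with 22.7 ± 4.64 over the lines (SD, n = 5, adjusted p = 0.0695) and Cpne8 22.9 and 33.6 ± 13.4 (adjusted p = 0.585). Cpne7 was called lower in pBKSM (0.270 FPKM) than in the clones (13.9 and 16.1 FPKM, limma adjusted p = 0.0377). Of the annexins outside the 9, Anxa9 fell from 2.69 FPKM in MEF to 0.962 ± 0.207 in the lines (adjusted p = 0.0343), and Anxa10 and Anxa13 were at or under 0.04 FPKM in each library.

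Genes with the most similar profile were sought among 10364 genes, by the root mean square difference of centred log2(FPKM + 1) over the 7 libraries. Nearest to Anxa2 were the fibronectin gene Fn1 (0.506), AA465934 (0.541) and the cytokine receptor gene Osmr (0.553). Nearest to Anxa3 were Igfbp6 (0.241), the collagen gene Col1a1 (0.244) and Msln (0.248), and nearest to Anxa1 were Spp1 (1.04), H19 (1.07) and Col6a3 (1.13). Anxa5 lay closest to Dpysl3 (0.314), Ccl2 (0.398) and Gusb (0.438), and Anxa6 to the kinesin gene Kif5c (0.287), Smpdl3b (0.393) and Ap1g2 (0.440). Anxa4 lay closest to Tuba4a (0.482), Ppap2c (0.497) and Ggta1 (0.504), and Anxa7 to Slc6a6 (0.304), Nefl (0.315) and Esyt1 (0.317). Anxa11 lay closest to Ehbp1l1 (0.153), Gsdmd (0.206) and Capn1 (0.209), the last of the membrane repair list. Within the family, Anxa7 and Anxa11 were each other's nearest member (0.573), as were Anxa1 and Anxa3 (1.34). For Anxa8, with 5 libraries at 0, the nearest profiles were flat genes (Lars2, Traf3ip1 and Exosc9, 0.0991 to 0.114). All profiles share the same 7 libraries, so likeness is a description.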

How the data were processed

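Total RNA of 7 mouse libraries was sequenced, each from pooled RNA of 2 to 3 biological replicates per the labels' protocols. The authors deposited 1 table of FPKM values, and the submitters' processing notes name mm10 as build and, as tools, Cuffnorm, Cufflinks 2.2.1, STAR 2.5.2b and R 3.3.2. What each did, and whether counting used strand, is not given in the sources used here. Genes on the opposite strand overlap Anxa1, Anxa2, Anxa4, Anxa8 and Anxa11, whose reads cannot be parted without strand, and genes on the same strand overlap Anxa2, Anxa3 and Anxa5. Those listed in the table were at or under 0.395 FPKM.

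From these values log2(FPKM + 1) was computed. A gene entered a test if any library of that test reached 1 FPKM. Tests were limma's, with a mean-variance trend (R 4.3.3, limma version 3.58.1). p-values were adjusted by Benjamini-Hochberg over all genes of a test, with a call at an adjusted p under 0.05. MEF, cNSC and iNSC in 1 fit left 4 residual degrees of freedom, the 6 label groups left 1, and DTA against 4 lines left 3; a lone library was taken to vary like the replicated side. SDs and SEs treat the lines as independent. Alternatives were a pseudocount of 0.1, no filter, a 5 FPKM filter, quantile normalization, leaving out libraries and, added after seeing the data, leaving out both clones and scaling to equal FPKM sums. Depth was estimated as the peak of fragments implied by low values of genes with 1 transcript, and is approximate. Members and lists were chosen with earlier results of these data known. Named were all members, up to 4 called genes with the largest difference of each list against MEF (or the 2 most abundant, if a list had no call), up to 3 called over all lists in other comparisons, and the 3 nearest profiles of each member. Code was tested on simulated data. Coordinates follow GENCODE for GRCm38, which is mm10. Part of the plasminogen list is not reported here.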

Additional observations from a re-analysis of the deposited data

Results flagged for a closer look

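Anxa2 in the DTA line, at 122 FPKM, stood apart from the other 4 iNSC libraries (19.1 to 28.5 FPKM). Its gap to the nearest of them took 0.787 of the group's whole range on the log2(FPKM + 1) scale, above Dixon's critical value of 0.71 for 5 samples. Of the 8 members with any spread among the lines it was the sole one to pass, and chance flags about 1 in 20 groups. pBKSM came close for Anxa5, at 0.697.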

How the results depend on the processing

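With a pseudocount of 0.1 the annexins called in iNSC against MEF were 3 in place of 5, and the genes called were 74 in place of 152 in iNSC against cNSC, 7 in place of 0 in pBKSM against pOKSM and 17 in place of 44 in DTA against the other lines. Without a filter the genes called were 618, 374 and 583 in those last 3 comparisons, and the annexins called were 0 in place of 3 in pBKSM against mcBKSM and 1 in place of 0 for DTA. A filter of 5 FPKM gave 74 genes for iNSC against cNSC (0 annexins in place of 1), 1454 in place of 759 for pBKSM against mcBKSM, 90 for pBKSM against pOKSM (2 annexins in place of 0) and 16 for DTA. The 3 BKSM libraries alone gave 2536 genes and 5 annexins for pBKSM against mcBKSM. A 4-fold threshold gave 1591 genes in place of 3891 for cNSC against MEF.

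Leaving out 1 library at a time gave 1147 (without pOKSM) to 3193 (without DTA) genes in place of 2128 for iNSC against MEF, 1417 without mcBKSM clone 3, and 2 to 5 annexins. It gave 50 (without pOKSM) to 883 (without DTA) genes and 0 to 2 annexins for iNSC against cNSC. For DTA it gave 0 (without mcBKSM clone 1) to 3951 (without pBKSM) genes and 0 to 5 annexins. Without both mcBKSM clones, an alternative chosen after seeing the data, the counts were 840 genes and 1 annexin, Anxa3, against MEF, 0 genes and 0 annexins against cNSC, and 0 genes for DTA. Leaving out a clone in pBKSM against mcBKSM left no residual degrees of freedom, so it gave values and no test.

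Over single genes, 335 values held, 23 lost a call, 13 gained one and 7 turned sign, none of them called on either side. Values that held kept their direction and side of the threshold. Values without a test (pBKSM against mcBKSM without a clone) were also counted as held. Leaving out 1 of 2 clones moves a difference by a fixed part of the gap between them, under the limit set. That these values held was thus fixed in advance and says nothing about stability. The log2 differences that turned were Anxa6 against MEF (-0.44), Anxa4 (-0.24) and Anxa7 (-0.23) against cNSC, all without both clones, Anxa5 without pBKSM (0.24 against cNSC, -1.01 for DTA), Anxa3 against cNSC with quantile normalization (0.016) and Anxa1 for DTA without mcBKSM clone 3 (-0.11). Leaving out 1 library at a time, Anxa5 ran from -0.85 to 0.24 against cNSC and from -1.01 to 0.45 for DTA, and Anxa1 for DTA from -0.11 to 0.96. Scaling to equal FPKM sums moved the median of all genes to -0.21 in iNSC against cNSC and from -0.01 to 0.30 for DTA. No paired analysis was possible because the groups compared share fewer than 2 replicate numbers. Depth limits Anxa8, Anxa3 outside MEF, Anxa1 in mcBKSM clone 3, Anxa4 in pBKSM, and Anxa11 in pBKSM, DTA and cNSC, whose levels lie near or under a few fragments.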
